A study of Mus musculus with 8 samples.

Results

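Transcription regulators at the centre of the fat cell programme were examined here, 10 of the 18193 genes represented in the table: the receptors Pparg, Ppara and Ppard, their partner Rxra, the oxysterol receptor Nr1h3, the leucine zipper factors Cebpa, Cebpb and Cebpd, the zinc finger factor Klf15 and the coregulator Nrip1. They were chosen by name, and 22 of the 45037 probe sets carry exactly 1 of these symbols. A further probe set that names Ppard together with another gene was left out. RNA came from the gonadal fat of mice on a Swiss background at 10 weeks, kept under normal conditions without treatment. Of the 8 arrays, 4 (replicates 6, 8, 9 and 10) were from aP2-Pex5 -/- mice, called knockout below, and 4 (replicates 1, 2, 3 and 4) from wild type mice, called control. Pex5 is the import receptor for peroxisomal enzymes, and the submitters describe the adipose tissue of the knockouts as lacking functional peroxisomes. The aP2 promoter named in the genotype is that of Fabp4, a gene of mature fat cells that is also known to be active in macrophages, and the tissue holds other cells in both groups. The comparison asks how the levels of these regulators stand in fat without working peroxisomes. Whether each array stands for its own animal is not in the labels, and the p-values measure only the spread between these samples.

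PPAR proteins are nuclear receptors that bind fatty acids and their derivatives and sit on DNA as a pair with an RXR protein. PPARG is needed to form and maintain fat cells, PPARA switches on fatty acid oxidation, including that of peroxisomes, and PPARD is expressed widely and also drives oxidation genes. During fat cell formation C/EBPB and C/EBPD act early and help to switch on Pparg and Cebpa, which then keep each other on. Klf15 also promotes fat cell formation and glucose uptake, while Nrip1 encodes RIP140, a corepressor that binds nuclear receptors and holds back oxidation genes.

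Pparg is transcribed from several starts, but was read through 1 probe set (1420715_a_at), so transcripts from these starts were not told apart. The RefSeq promoters on GRCm38.p6, 250 bases before to 50 after a start, matched 9 of the 10 genes, all but Cebpd, with 14 promoters. The 3 Pparg promoters are shown because their transcripts share that probe set. The Klf15 promoter is shown because Klf15 went up and down over the arrays most like Pparg among the other regulators by Pearson's r. By Spearman's rho Cebpa and Rxra were more like Pparg, at 0.857 each, against 0.595 for Klf15. They lie on the plus strand at chr6:115360894-115361193, chr6:115362099-115362398 and chr6:115421816-115422115 for Pparg and at chr6:90462326-90462625 for Klf15.
Pparg start 1: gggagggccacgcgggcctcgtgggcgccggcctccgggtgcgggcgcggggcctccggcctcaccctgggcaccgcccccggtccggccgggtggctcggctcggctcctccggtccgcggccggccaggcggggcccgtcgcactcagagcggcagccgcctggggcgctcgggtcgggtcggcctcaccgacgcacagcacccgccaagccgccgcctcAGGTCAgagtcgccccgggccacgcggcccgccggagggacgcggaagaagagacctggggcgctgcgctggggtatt
Pparg start 2: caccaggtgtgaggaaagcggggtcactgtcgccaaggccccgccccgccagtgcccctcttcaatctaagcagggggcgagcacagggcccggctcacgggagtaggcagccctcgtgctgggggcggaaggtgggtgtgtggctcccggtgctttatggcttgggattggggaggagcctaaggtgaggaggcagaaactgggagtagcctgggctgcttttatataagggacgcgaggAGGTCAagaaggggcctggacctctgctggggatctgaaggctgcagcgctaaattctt
Pparg start 3: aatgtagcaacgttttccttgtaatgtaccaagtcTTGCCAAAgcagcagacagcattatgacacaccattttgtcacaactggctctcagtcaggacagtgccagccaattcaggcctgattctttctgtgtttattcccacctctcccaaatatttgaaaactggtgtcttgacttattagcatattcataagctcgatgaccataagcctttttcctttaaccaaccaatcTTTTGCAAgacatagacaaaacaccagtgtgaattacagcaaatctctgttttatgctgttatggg
Klf15: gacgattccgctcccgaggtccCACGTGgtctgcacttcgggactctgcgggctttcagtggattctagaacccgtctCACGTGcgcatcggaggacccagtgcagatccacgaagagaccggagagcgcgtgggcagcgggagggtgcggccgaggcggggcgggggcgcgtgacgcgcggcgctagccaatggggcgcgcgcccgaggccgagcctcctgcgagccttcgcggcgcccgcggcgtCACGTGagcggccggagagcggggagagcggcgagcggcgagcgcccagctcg
Capitals mark matches, on either strand, to AGGTCA, a single copy of the nuclear receptor motif, to the C/EBP pattern TTNCNNAA or to the E-box CACGTG. These matches do not overlap one another here. A single AGGTCA is in each of Pparg starts 1 and 2, beginning 28 and 9 bases before the start. The C/EBP pattern is in start 3, beginning 215 and 16 bases before it. Klf15 holds CACGTG at 228, 172 and 3 bases before its start. Of all 32851 promoters of this length, 16.3% hold AGGTCA, 40.7% the C/EBP pattern and 7.15% CACGTG, the last searched for after the sequences were seen. Of the 14 promoters, 3 hold AGGTCA, 2 the C/EBP pattern and 1 the E-box. A direct repeat of AGGTCA with a single base between is in 0 of the 14 and in 0.0396% of all promoters.

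No difference between knockout and control was called for any of the 10 regulators. With limma, 0 of 10 had an adjusted p under 0.05, and 0 of 18193 genes (0%) did; the adjusted p was 0.999 for each of the 10. At an unadjusted p under 0.05, limma called 0 of the 10 regulators and 466 of all genes (2.56%), and the groups overlapped in all 10, where they did not overlap in 310 genes (1.7%). A plain test per gene called 511 genes (2.81%) at an unadjusted p under 0.05 and 0 genes after adjustment. On the log2 scale 7 of the 10 lay lower and 3 higher in knockout by their means, with a median difference of -0.0174; of all genes 53.3% lay lower, with a median of -0.0082. The median size of the difference, either way, was 0.06 in the 10 regulators and 0.07 over all genes. In whole tissue, fewer cells of a type and less RNA per cell cannot be told apart. Probe sets of Pex5 did not separate the groups either: 1426770_at read 9.50, 9.27, 9.38 and 9.30 in knockouts 6, 8, 9 and 10, against 9.52, 9.58, 9.34 and 9.06 in controls 1 to 4. The labels do not say which part of the gene was deleted or where these probes lie, so they check nothing about the genotype. The tissue carried its defining fat cell markers on every array, with adiponectin (Adipoq) between 14.43 and 14.63, and 8 of the 10 adipocyte markers listed were measured.

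**Figure D1:**
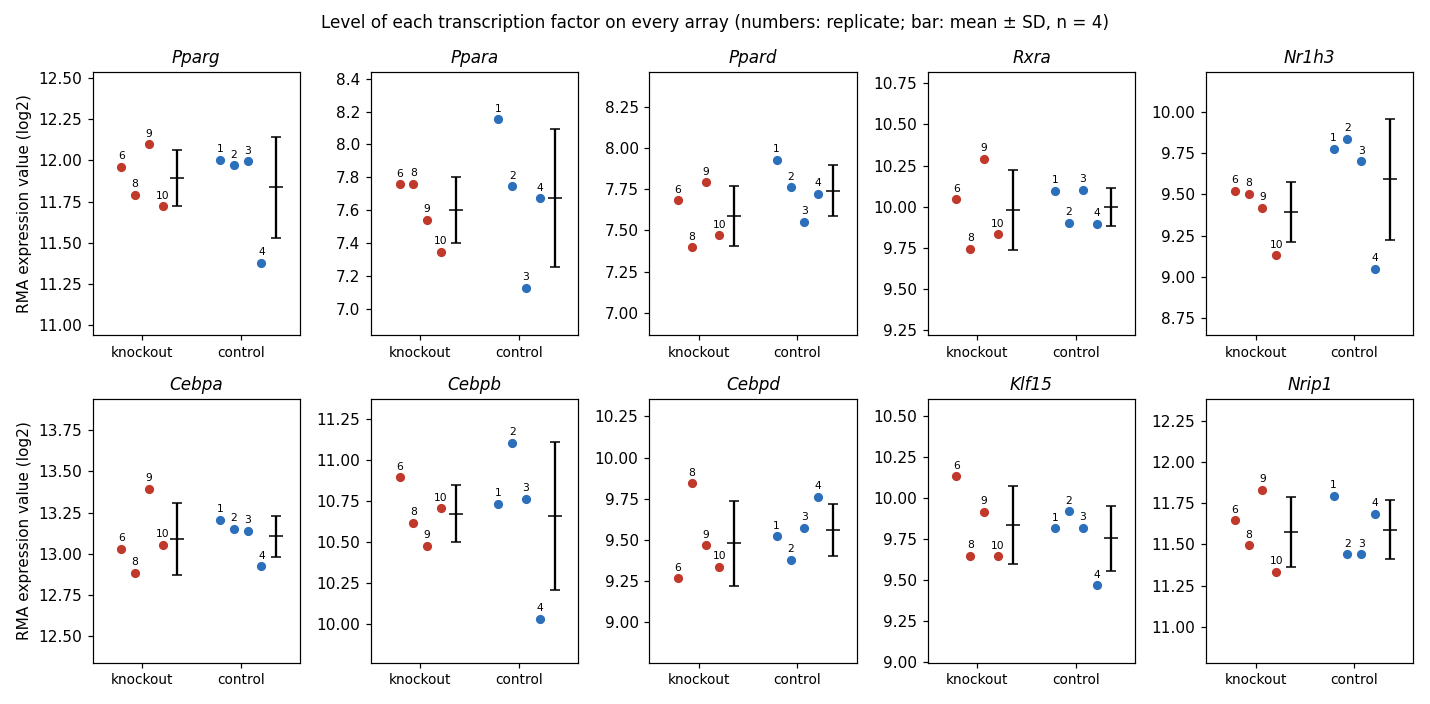
RMA expression value (log2, vertical axis) of each regulator on each array, with knockout on the left and control on the right of every panel; numbers are replicate numbers and black bars the mean ± SD (n = 4 each). All panels span the same height. The groups overlap in every panel, and control 4 lies below the other 7 arrays for Pparg, Nr1h3, Cebpb and Klf15.

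Pparg, the receptor that thiazolidinedione drugs bind, read 11.96, 11.79, 12.10 and 11.72 in knockouts 6, 8, 9 and 10. In controls 1 to 4 it read 12.00, 11.97, 11.99 and 11.38. Controls 1, 2 and 3 lay close together and control 4 far below them, and the knockouts fell on both sides of the control mean. The means were 11.89 ± 0.17 in knockout and 11.84 ± 0.31 in control (SD, n = 4 each). They differed by 0.06, with a limma interval of -0.30 to 0.42 (95%, not adjusted for the number of genes). Without control 4 the difference was -0.10.

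Ppara read 7.76, 7.76, 7.54 and 7.35 in knockouts 6, 8, 9 and 10, against 8.15, 7.74, 7.13 and 7.67 in controls 1 to 4. The controls spanned more than the knockouts and held both the highest and the lowest array. The difference was -0.07 (limma interval -0.54 to 0.39). Control 1, the array highest in Ppara, also had the highest score of liver markers, genes such as Alb and Apoa1: 3.35, against 0.37, -0.39 and -1.61 in controls 2, 3 and 4. In the knockouts that score lay between -1.67 and 1.06 (the mean of 9 markers after subtracting each marker's mean over the arrays, log2; 10 were listed). Liver is rich in Ppara, and the part of these transcripts in its level was not tested.

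The other probe sets of Ppara pointed in both directions. Probe set 1449051_at read 7.54, 7.55, 6.85 and 7.75 in knockouts 6, 8, 9 and 10 and 7.39, 7.69, 6.90 and 6.55 in controls 1 to 4, a difference of 0.29 (limma interval -0.34 to 0.91). For 1457721_at the knockouts read 6.83 to 6.95, close together, and the controls 6.76 to 7.47 around them, a difference of -0.19. The intervals of all 3 Ppara probe sets held 0.

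Ppard read 7.68, 7.40, 7.79 and 7.47 in knockouts 6, 8, 9 and 10. Its controls, 1 to 4, read 7.93, 7.76, 7.55 and 7.72. The knockouts were lower on average, with knockout 9 above 3 controls. The difference of -0.16 had a limma interval of -0.42 to 0.11 and the smallest unadjusted p of the 10 regulators, 0.214. The other Ppard probe set, 1425703_at, was dim, with a mean of 5.36 at percentile 33.2 of all probe sets. It read 5.40, 4.92, 5.22 and 5.38 in the knockouts, against 5.29, 5.57, 5.64 and 5.46 in the controls. Here 3 of 4 controls lay above every knockout. Its difference of -0.26 (limma interval -0.55 to 0.0253) had the smallest unadjusted p of the 22 probe sets, 0.0691, with an adjusted p of 0.999 over all probe sets.

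Rxra, the shared partner of the PPAR and LXR receptors, read 10.05, 9.75, 10.29 and 9.83 in knockouts 6, 8, 9 and 10, against 10.10, 9.90, 10.10 and 9.90 in controls 1 to 4. The controls lay inside the range of the knockouts, and the difference was -0.0195 (limma interval -0.31 to 0.27). The other 2 probe sets differed by 0.21 and 0.06, with intervals that held 0.

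Nr1h3, which encodes the oxysterol sensor LXRA found in fat cells, liver and macrophages, had the widest difference of the 10. It read 9.52, 9.50, 9.42 and 9.13 in knockouts 6, 8, 9 and 10, against 9.78, 9.84, 9.70 and 9.05 in controls 1 to 4. All 4 knockouts lay below controls 1, 2 and 3, and all lay above control 4. The difference was -0.20 (limma interval -0.61 to 0.22), or a 0.872-fold level. Without control 4 it was -0.38, with a limma adjusted p = 0.552; leaving out 1 of the other arrays gave -0.24 to -0.11. Control 4 had a neutrophil marker score of 1.93, against -0.47 to -0.10 in the knockouts and -0.26 to -0.17 in controls 1 to 3 (6 of 8 markers measured). Its macrophage marker score was 0.24; over the 14 markers the knockouts lay between -0.47 and 0.03 and the controls between -0.18 and 0.36. The part of these cells in Nr1h3 was not tested.

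Cebpa, the factor that keeps Pparg on in the mature fat cell, read 13.03, 12.88, 13.39 and 13.05 in knockouts 6, 8, 9 and 10, against 13.21, 13.15, 13.14 and 12.92 in controls 1 to 4. The highest and the lowest array were both knockouts. The difference was -0.0152 (limma interval -0.29 to 0.26).

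Cebpb, an early factor of fat cell formation that is also induced in inflammation, read 10.89, 10.62, 10.48 and 10.71 in knockouts 6, 8, 9 and 10. Controls 1 to 4 read 10.73, 11.10, 10.76 and 10.03. The knockouts lay inside the control range, whose ends were controls 2 and 4. The means of 10.67 ± 0.17 in knockout and 10.66 ± 0.45 in control (SD, n = 4 each) differed by 0.0147 (limma interval -0.47 to 0.50), and by -0.19 without control 4. The second probe set, 1427844_a_at, followed the same order of controls and differed by 0.0310.

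Cebpd, the other early factor, read 9.27, 9.84, 9.47 and 9.34 in knockouts 6, 8, 9 and 10, against 9.52, 9.38, 9.57 and 9.76 in controls 1 to 4. Knockout 8 was the highest array and knockout 6 the lowest. The difference was -0.08 (limma interval -0.40 to 0.24). A dim second probe set, 1456605_at, spanned only 6.13 to 6.20 in the knockouts and 6.20 to 6.31 in the controls, a difference of -0.07.

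Klf15 read 10.13, 9.65, 9.91 and 9.64 in knockouts 6, 8, 9 and 10, against 9.81, 9.92, 9.82 and 9.47 in controls 1 to 4. Knockout 6 was the highest array and control 4 the lowest. The difference was 0.08 (limma interval -0.24 to 0.40), and -0.0154 without control 4.

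Nrip1 was read by 6 probe sets. The one with the highest mean, 1434384_at, read 11.65, 11.49, 11.83 and 11.33 in knockouts 6, 8, 9 and 10, against 11.79, 11.44, 11.44 and 11.68 in controls 1 to 4. The groups covered nearly the same range, and the difference was -0.0133 (limma interval -0.31 to 0.28). Of the 6 probe sets 3 lay higher and 3 lower in knockout, between -0.16 and 0.32, and each interval held 0.

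Gene by gene, for the probe set of highest mean, the intervals limit the size of change that these arrays leave room for. For Pparg the limma interval ran from 0.81-fold to 1.34-fold, for Cebpa from 0.82-fold to 1.19-fold and for Rxra from 0.807-fold to 1.21-fold. The widest on the log2 scale were those of Cebpb, 0.723-fold to 1.41-fold, and Ppara, 0.688-fold to 1.31-fold, followed by Nr1h3, 0.654-fold to 1.16-fold. Other probe sets of the same gene left more or less room. The log2 interval of Rxra 1425762_a_at ran from -0.36 to 0.78 and that of Ppara 1449051_at from -0.34 to 0.91. That of Ppara 1457721_at was narrower, from -0.50 to 0.11. In simulated data of this size, the limma step called 25 of 50 genes changed by 1.5-fold and 41 of 50 changed by 2-fold. The same data also held 50 genes changed by 3-fold and 50 by 4-fold, and many changed genes ease the threshold after adjustment. These counts therefore do not give the chance of calling a regulator that changed alone. There each gene varied on its own, so shifts shared by many genes on an array were left out. The intervals reached a median of 0.32 to either side in the 10 regulators and 0.25 over all genes. Over the 22 probe sets, limma called 0 of 45037 probe sets (0%) after adjustment, and at an unadjusted p under 0.05 it called 0 of the 22 and 1139 of all (2.53%). Groups overlapped in all 22 and did not overlap in 721 of all probe sets (1.6%). By their means 12 of the 22 lay lower in knockout, as did 52.3% of all probe sets.

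**Figure D2:**
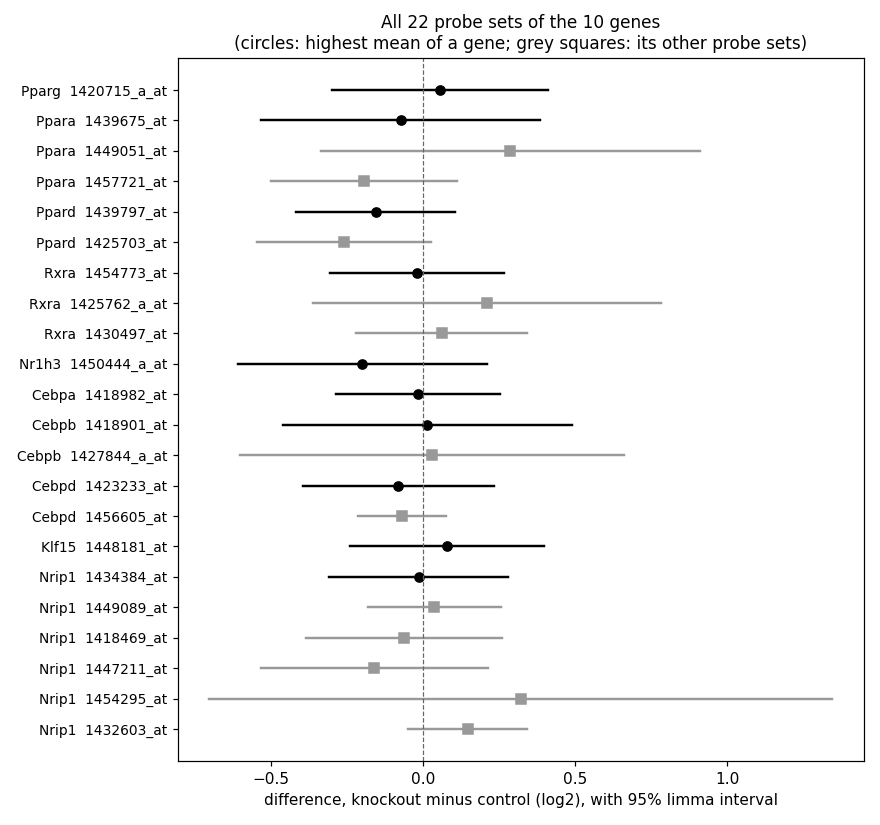
Difference between knockout and control (log2, horizontal axis) for each of the 22 probe sets, with 95% limma intervals as lines; black circles mark the probe set with the highest mean of its gene and grey squares the others. Every interval includes 0, and the widest, from -0.70 to 1.35, belongs to Nrip1 probe set 1454295_at.

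Over the 8 arrays the 10 regulators spanned between 0.50 (Nrip1) and 1.07 (Cebpb) on the log2 scale, against group differences of -0.20 to 0.08. Control 4 was the lowest array for 4 of the 10 (Pparg, Nr1h3, Cebpb and Klf15), and of all genes 14.5% were lowest there. Knockout 9 was the highest array for 4 of the 10 (Pparg, Rxra, Cebpa and Nrip1), and of all genes 15.4% were highest there. Knockout 8 was the lowest for Ppard, Rxra and Cebpa.

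**Figure D3:**
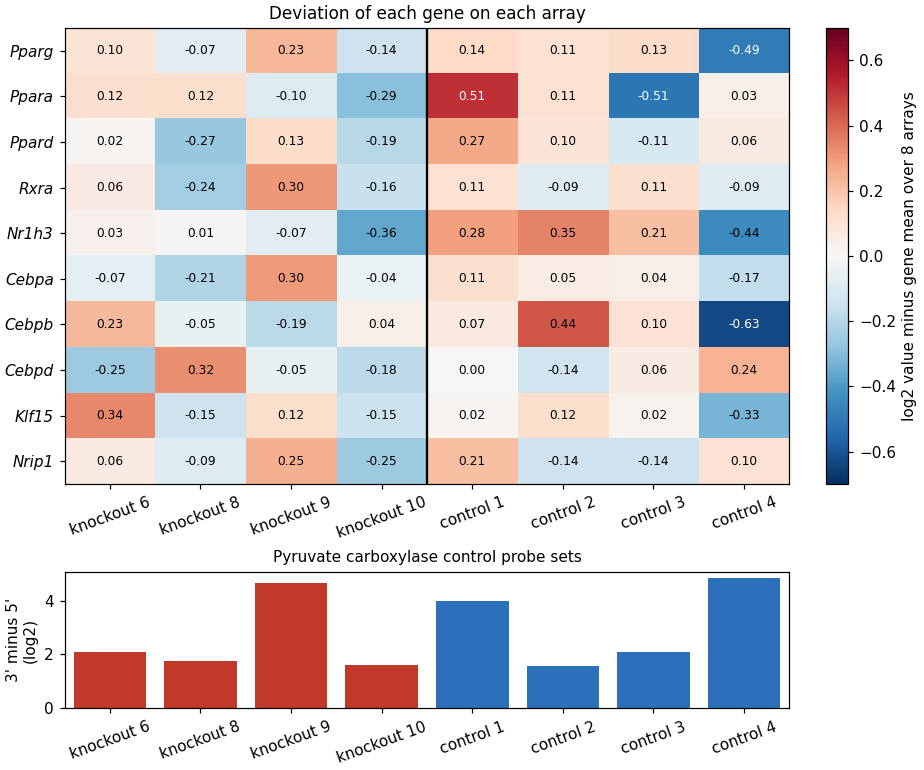
Upper panel: log2 value of each regulator on each array minus its mean over the 8 arrays, knockouts left of the black line and controls right of it. Lower panel: pyruvate carboxylase control, 3' end minus 5' end, on the same arrays (log2). Pparg, Nr1h3, Cebpb and Klf15 are lowest on control 4, and the 3' to 5' difference is over 3 on knockout 9 and controls 1 and 4.

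By the lower quartile of their values the arrays fall into 2 sets, which the labels do not name, knockouts 6 and 8 with controls 1 and 2, and knockouts 9 and 10 with controls 3 and 4. Within the set of controls 1 and 2, Cebpa averaged 12.96 in knockout and 13.18 in control, and Ppard 7.54 in knockout and 7.85 in control. Within the set of controls 3 and 4, Cebpa averaged 13.22 in knockout and 13.03 in control, and Ppard 7.63 in knockout and 7.64 in control. The direction of Cebpa differed between the sets; the difference between sets was not tested. Nr1h3 was lower in knockout within both sets, with differences of -0.30 and -0.10.

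Pairs of regulators were compared over the 8 arrays, and none passed the threshold of 0.05 after adjustment. Of the 45 pairs 33 had a Pearson r above 0, with a median of 0.29. The same count for pairs of other genes is not given, so shifts shared by many genes on an array are not set apart. Rxra and Cebpa had the highest r, 0.853 (Spearman's rho 0.786; two-sided exact permutation p = 0.00776 and 0.0279), followed by Pparg and Klf15 at 0.814 (rho 0.595; exact permutation p = 0.0121 and 0.132). After Benjamini-Hochberg adjustment over the 45 pairs the exact permutation p was 0.273 for r in both pairs and 0.314 and 0.513 for rho, so neither passed. Leaving out the 2 arrays farthest from the median of the first gene lowered r to 0.506 and 0.495. Pparg and Cebpa, the pair that keeps each other on, had an r of 0.741 and a rho of 0.857 (exact permutation p = 0.0370 and 0.0107, adjusted 0.292 and 0.231), and an r of 0.951 without the 2 arrays farthest in Pparg. Cebpd ran against Klf15, with an r of -0.711 and a rho of -0.571 (exact permutation p = 0.0490 and 0.151, adjusted 0.292 and 0.513).

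The genes whose profile over the 8 arrays was most like that of each regulator were taken as the 2 with the highest Pearson r among 8905 other genes in the upper part of the signal range. They are given with no p, since they were picked as the highest. For Pparg they were Plin4, which codes for a coat protein of lipid droplets (r = 0.964, rho = 0.857), and Wbp4 (0.960, rho = 0.833). Without the 2 arrays farthest in Pparg, r was 0.732 for Plin4 and 0.889 for Wbp4. For Cebpa they were Phkg2, a subunit of phosphorylase kinase (r = 0.953), and Fosl2, an AP-1 factor (0.933). Cebpb was matched by Dapk3 (0.990) and the translation initiation helicase Eif4a1 (0.983), and Cebpd by the growth factor Igf2 (0.964) and the RNA-binding protein Khsrp (0.925). Nr1h3 was matched by Nop16 and Focad (0.995 and 0.990), Klf15 by the deubiquitinase Usp16 and by Dip2a (0.986 and 0.950), and Nrip1 by the corepressor Rcor3 and by Atp9b (0.988 and 0.976). For Ppara they were Fuom and Ccdc107 (0.994 and 0.971), for Ppard the Hedgehog inhibitor Sufu and Cluh (0.987 and 0.955), and for Rxra Gid4 and Tnks1bp1 (0.965 and 0.948). The 3' to 5' difference of the pyruvate carboxylase control had an r of 0.856 with Nrip1 and -0.743 with Cebpb. With the other regulators its r lay between -0.31 (Nr1h3) and 0.64 (Ppard). Its part in these profiles was not tested.

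Some probe sets of the same gene moved apart on arrays that differed in the pyruvate carboxylase control, taken here as the measure of RNA quality. On 3 arrays, knockout 9 and controls 1 and 4, the 3' end of the pyruvate carboxylase control read above its 5' end by 3.97 to 4.83, and on the other 5 by 1.59 to 2.10. This split was made after seeing the data and is no group of the study. On those 3 arrays Rxra probe set 1425762_a_at read 8.51 in the knockout and 8.44 and 8.22 in the controls, and on the other 5 it lay between 9.06 and 9.19. Rxra probe set 1454773_at did not follow, with 9.90 to 10.29 on the 3 arrays and 9.75 to 10.10 on the other 5. Cebpb probe set 1427844_a_at was also lower on all 3, at 8.46 to 9.22 against 9.33 to 9.83. Cebpb 1418901_at went the same way on average, 10.42 against 10.82, with overlap. The Ppara probe sets overlapped too. On average 1449051_at was lower on the 3 arrays, 6.93 against 7.49. Ppara 1439675_at and 1457721_at were higher, 7.79 against 7.55 and 7.15 against 6.91.

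Nrip1 probe sets went in opposite directions on these arrays. Probe sets 1434384_at and 1447211_at were higher on all 3; for 1447211_at the values were 9.47 to 9.60 against 8.92 to 9.20. Probe set 1454295_at averaged 7.68 on the 3 arrays and 8.76 on the other 5, with 1 of the 5 inside the range of the 3. In all, 2 of the 22 probe sets were lower on all 3 arrays and 2 higher, where 5.06% and 3.33% of all probe sets were (8.38% together). Of the 3 arrays 2 are controls, and the differences of Rxra 1425762_a_at (0.21) and Nrip1 1454295_at (0.32) lay above 0; the part of RNA quality in them was not tested. With the 3' to 5' difference as a covariate, limma called 0 regulators.

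**Figure D4:**
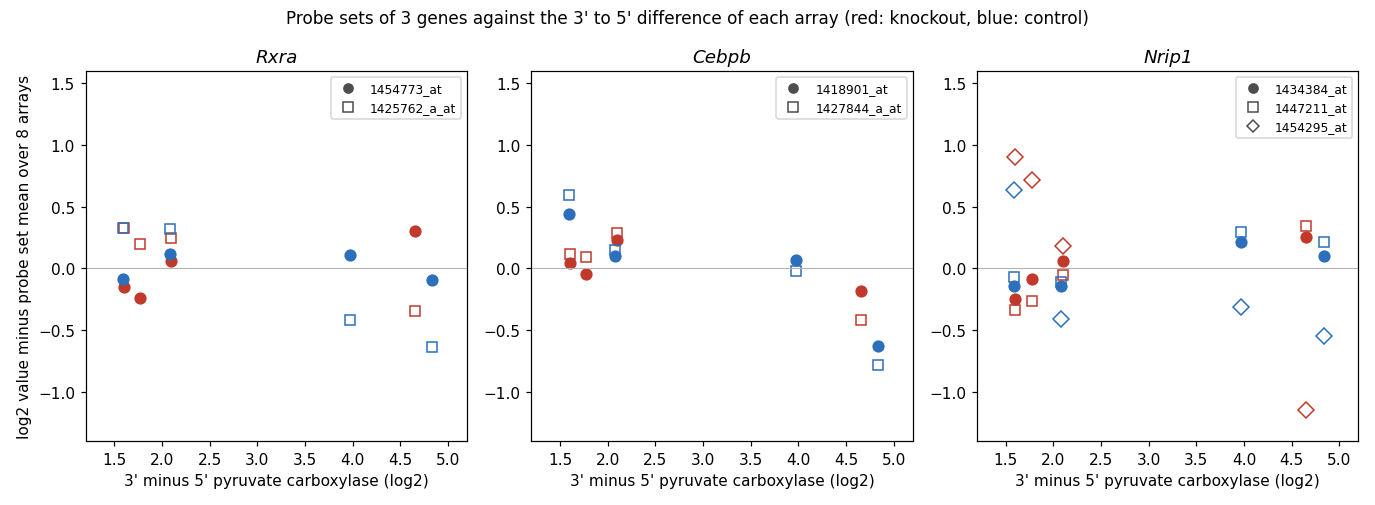
Log2 value minus the probe set's mean over the 8 arrays (vertical axis) against the pyruvate carboxylase control, 3' end minus 5' end, on the same array (log2, horizontal axis), for probe sets of Rxra, Cebpb and Nrip1; red marks knockout and blue control. On the 3 arrays at the right Rxra 1425762_a_at and Cebpb 1427844_a_at are lower than on the other 5, and Nrip1 1434384_at and 1447211_at are higher.

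Among genes that the regulators are known to control or work with, limma called 0 after adjustment in either direction in each of 6 lists. Of 20 measured PPARG target genes 14 lay lower and 6 higher (median -0.06), with 0 at an unadjusted p under 0.05. The fatty acid binding protein Fabp4 averaged 14.77 ± 0.03 in knockout and 14.77 ± 0.03 in control, Adipoq 14.49 ± 0.05 and 14.55 ± 0.06, the fatty acid transporter Cd36 14.09 ± 0.05 and 14.16 ± 0.03, and lipoprotein lipase (Lpl) 14.43 ± 0.01 and 14.45 ± 0.07 (SD, n = 4 each). These means lay near the top of the range of values, which ended at 14.83, where differences may be compressed. The lipid droplet gene Plin2 differed by -0.27 and the pyruvate dehydrogenase kinase Pdk4 by 0.18, the 2 smallest unadjusted p-values of the rest.

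Of 21 measured PPARA target genes 13 lay lower and 8 higher (median -0.05). The peroxisomal enzyme Ehhadh was the 1 member at an unadjusted p under 0.05, on the lower side, where 1.38% of all genes were. It read 9.39, 9.36, 9.17 and 9.18 in knockouts 6, 8, 9 and 10, against 10.23, 9.86, 9.24 and 9.76 in controls 1 to 4, a difference of -0.49 with a limma adjusted p of 0.999. The mitochondrial carnitine transferases Cpt1a and Cpt2 differed by -0.06 and -0.29, the dehydrogenase Acadm by 0.06 and Hadha by -0.20. The cytosolic thioesterase Acot1 read 8.12, 8.95, 8.77 and 9.54 in knockouts 6, 8, 9 and 10, against 8.07, 6.69, 4.75 and 8.95 in controls 1 to 4. Controls 1 and 4 lay near the knockouts and controls 2 and 3 far below, so the difference of 1.73 had a limma interval of -0.13 to 3.60.

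LXR target genes lay lower in 12 of 14 (median -0.0371), with 0 at an unadjusted p under 0.05. The sterol exporter Abca1 differed by -0.0104, its relative Abcg1 by -0.18, the lipogenic factor Srebf1 by -0.18 and the ubiquitin ligase Mylip by 0.10. Abcg1 was the 1 gene of the list without overlap between groups, with 9.33, 9.38, 9.38 and 9.26 in the knockouts and 9.46, 9.41, 9.79 and 9.41 in the controls, where 1.7% of all genes had none. Its adjusted limma p was 0.999. The phospholipid enzyme Lpcat3 differed by -0.22 and fatty acid synthase (Fasn) by -0.42. Macrophages express Abcg1 and several of these genes too, and 13 of 14 macrophage markers lay lower in knockout, with a median of -0.24 over the 14. The knockouts did not share this evenly. The macrophage score was -0.47 in knockout 6 and -0.0057, 0.0061 and 0.0331 in knockouts 8, 9 and 10. In controls 1 to 4 it was 0.0286, -0.18, 0.36 and 0.24. The part of macrophages was not tested. In the list of C/EBP targets 8 of 11 lay lower (median -0.06), with leptin (Lep) at 0.52, the glucose transporter Slc2a4 at -0.17, Irs1 at -0.33 and acetyl-CoA carboxylase (Acaca) at -0.86; none had an unadjusted p under 0.05.

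Of 22 measured coregulators and relatives 13 lay lower and 9 higher (median -0.0212). The RXR genes Rxrb and Rxrg differed by -0.05 and -0.13, and Carm1, an arginine methyltransferase, by -0.18. The coactivator Ppargc1a read 7.78, 7.83, 7.09 and 7.29 in knockouts 6, 8, 9 and 10, against 7.49, 7.22, 5.80 and 7.08 in controls 1 to 4, and its relative Ppargc1b differed by 0.05. Prdm16, a partner of PPARG and C/EBPB in brown and beige fat cells, was the 1 member at an unadjusted p under 0.05, on the higher side, where 1.18% of all genes were. It averaged 6.84 ± 0.30 in knockout and 6.27 ± 0.23 in control (SD, n = 4 each). The difference was 0.58, and its adjusted limma p was 0.999. Prdm16 in knockout 9, at 6.45, lay below control 1, at 6.46.

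Among 36 other factors that promote or hold back fat cell formation 22 lay higher and 14 lower (median 0.05). Srebf1, Klf2, Klf3 and Klf4 differed by -0.18, 0.07, 0.04 and 0.07. Of these, 2 (Hes1 and Atf4) had an unadjusted p under 0.05, both higher in knockout, where 1.18% of all genes were. Atf4, the transcription factor of the integrated stress response, read 11.19, 11.13, 11.24 and 11.04 in the knockouts, against 11.02, 10.91, 10.85 and 11.01 in the controls. Its groups did not overlap, as in 1.7% of all genes, and its difference of 0.20 had an adjusted limma p of 0.999. Hes1, a target of Notch signalling, averaged 8.52 ± 0.18 in knockout and 8.23 ± 0.13 in control (SD, n = 4 each), a difference of 0.29.

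**Figure D5:**
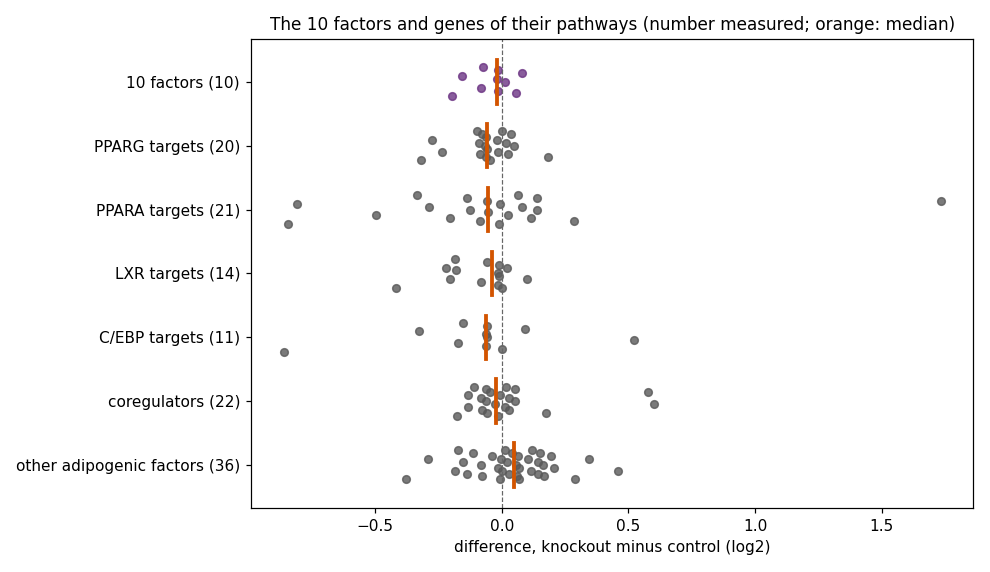
Difference between knockout and control (log2, horizontal axis) for the 10 regulators (top row) and for the measured genes of 6 lists of targets, coregulators and other factors; each point is a gene and the orange bars are medians. The 10 regulators lie between -0.20 and 0.08, and the medians of the lists between -0.06 and 0.05.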

How the data were processed

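The deposited table holds log2 expression values, 1 column for each of the 8 arrays, made by the authors with RMA, per the submitters' processing notes; RMA corrects background, normalises between arrays and summarises probes, with no version stated in the labels. No detection calls or scanner values were used, so background is unknown and low or very high values may be compressed. Of 45101 probe sets, 64 Affymetrix controls were left out. The platform annotation of 2016 gave 1 symbol for 34945 probe sets, several for 932 and none for 9160; 34741 were listed in RefSeq genes of GRCm38.p6, which changed 0 symbols. For each gene the probe set of highest average signal was used.

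Groups were compared with limma 3.58.1 in R 4.3.3 (lmFit, eBayes), with Benjamini-Hochberg adjustment over all 18193 genes, or all 45037 probe sets, at a threshold of 0.05. The number of arrays, 4 per group, limits the precision. Members, lists and tests were chosen with earlier results of these data known. Named were all members, the first 4 measured genes of each list and its 2 smallest unadjusted p-values, Pex5, and the 2 most similar profiles per member. Profiles skipped symbols made of a clone number. Marker scores of other cell types and the alternatives are in part in the closing section. The limma step was tested on simulated data for 18193 genes, with 5 false calls. Figures used matplotlib 3.10.9.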

Additional observations from a re-analysis of the deposited data

Results flagged for a closer look

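Among the 44 groups of 4 values formed by the 22 probe sets, 2 held an array whose gap to its nearest neighbour was over 0.829 of the group's range (Dixon's test at 95%), and chance flags about 5% of groups. Pparg probe set 1420715_a_at read 11.38 on control 4, where the other controls lay between 11.97 and 12.00. Cebpd probe set 1456605_at, a dim one, read 6.31 on control 4, where the other controls read 6.20.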

How the results depend on the processing

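After adjustment, limma called 0 of the 10 regulators and 0 of their 22 probe sets under each alternative, and leaving out 1 array at a time gave 0 to 0 genes. The exception for all genes was a fit of the 5 arrays with a pyruvate carboxylase difference under 3, chosen after seeing the data, which called 155 genes. That fit set knockouts 6, 8 and 10 against controls 2 and 3 only, and what made these calls was not tested. In it Nr1h3 differed by -0.39. Ppard and Nr1h3 stayed lower in knockout in all 20 alternatives, but these refit the same 8 arrays or some of them. Several, such as the plain test and the variance trend, leave the difference unchanged by design. Within the array set not holding control 1, Ppard differed by only -0.0058 and Nr1h3 by -0.10. The unadjusted limma p of Ppard was under 0.05 in 1 alternative, at 0.0471 when averaging all its probe sets, the dim one included. That of Nr1h3 was under 0.05 in 3. It was 0.0229 within the array set of control 1, 0.00963 without control 4 and 0.0428 with those 5 arrays. For each of the other 8 it was under 0.05 in 0. The share of all genes under 0.05 in the same alternatives is not given, so these counts have no background to be read against. Signs of the other 8, whose differences are small, turned as follows; the cause was not tested. With those 5 arrays Pparg was -0.16, Ppara 0.19, Cebpb -0.20, Cebpd 0.0060, Klf15 -0.0603 and Nrip1 0.0507. With array medians subtracted Cebpb was -0.0127. Averaging all probe sets per gene, Ppara was 0.0071, Rxra 0.0847 and Nrip1 0.0456. With array weights Pparg was -0.0356, Cebpb -0.0893, Cebpd 0.00095 and Klf15 -0.0051. Within the array set of control 1 Pparg was -0.11, Cebpb -0.16 and Cebpd 0.11, and within the other set Ppara was 0.0422, Rxra 0.0635, Cebpa 0.19 and Nrip1 0.0205. With the RNA quality covariate Rxra was 0.0206, Cebpa 0.0085, Cebpb -0.0872 and Nrip1 0.0546.

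Without 1 array at a time the lowest and highest differences were -0.10 and 0.11 for Pparg, -0.25 and 0.0861 for Ppara, -0.22 and -0.0923 for Ppard, -0.12 and 0.0584 for Rxra, -0.38 and -0.11 for Nr1h3, -0.12 and 0.0534 for Cebpa, -0.19 and 0.16 for Cebpb, -0.20 and -0.0097 for Cebpd, -0.0189 and 0.14 for Klf15, and -0.10 and 0.0682 for Nrip1; the median of the 10 ran from -0.0879 to 0.0290. No paired analysis was possible because the groups share no replicate numbers. Signal over background is unknown, since no detection calls were used, and the number of arrays limits the precision.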

Other observations

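Control 4, the array lowest in Pparg, Nr1h3, Cebpb and Klf15, had an adipocyte marker score of -0.18 (8 genes, of which the PPARG target list also holds most), where the knockouts lay between -0.07 and 0.13 and the other controls between -0.07 and 0.13. Its scores were 0.24 for fibroblast and progenitor markers, 0.31 for endothelial markers, 0.38 for lymphocyte markers and -0.23 for mesothelial markers. Over the 8 arrays the score of mesothelial markers ran from -1.28 to 0.60 in the knockouts and from -0.23 to 0.79 in the controls. That of endothelial markers ran from -0.22 to 0.07 in the knockouts and from -0.40 to 0.31 in the controls. Lymphocyte markers ran from -0.43 to 0.46 in the knockouts and from -0.29 to 0.38 in the controls, and fibroblast and progenitor markers from -0.31 to 0.17 in the knockouts and from -0.14 to 0.24 in the controls.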
